A study of Mus musculus with 6 samples.

Results

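RNA-binding proteins of the RBM and hnRNP families were followed in mouse CT26 colon tumors treated with H89 or left on its vehicle. Members were taken by symbol. They are the genes whose symbol starts with Rbm followed by a digit or x, with Hnrnp, with Luc7l, or with Tra2a or Tra2b. The genes Pnisr, Son, Srrm1, Srrm2, Nktr and Paxbp1 were added, named one by one. The rule found 74 members among the 23557 genes of the table: 42 RBM genes, 21 hnRNP genes, 3 LUC7-like genes, 2 TRA2 genes and the 6 named genes. The rule uses symbols and no threshold on measured values, but it was written with earlier results of these data known.

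CT26 is a colon carcinoma line of BALB/c origin. BALB/c mice carried subcutaneous tumors started with 500000 CT26 cells. Beginning on day 6 they were injected into the peritoneum 2 times a week with H89 (10 mg/kg in NaCl) or with NaCl alone. H89 blocks protein kinase A and, less selectively, other kinases of the same family. Whole tumors of 3 NaCl mice and 3 H89-treated mice were taken on day 14 after the cells were injected, and total RNA was sequenced, so tumor cells, immune cells and stroma were measured together. For a gene that is lower in such bulk tumors, fewer cells of a type and less RNA per cell cannot be told apart, and the same holds for a gene that is higher.

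RBM and hnRNP proteins bind RNA from the moment it is transcribed. Members of the U1 and U2 snRNP environment, such as the LUC7-like proteins, RBM25, RBM5 and RBM17, help the spliceosome choose splice sites, whereas hnRNP proteins coat introns and exons and can block or favor an exon. The large serine and arginine rich proteins SON and SRRM2 build the nuclear speckles in which splicing factors are stored. Many genes of these families hold a poison exon or a retained intron, whose inclusion sends their own transcript to nonsense-mediated decay (NMD) or keeps it in the nucleus, and so limits the amount of the protein. Gene-level counts, as used here, do not separate such isoforms.

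The 6 tumors held 27067349 to 31958793 estimated counts. Levels below are CPM, the counts relative to library size, scaled by the TMM factor of each tumor (0.956 to 1.06), and group values are mean ± SD with n = 3. Of the 74 members, 67 passed a filter of 0.5 CPM on average and were tested with edgeR against all 13118 genes that passed, with Benjamini-Hochberg adjustment over all of them. The T cell marker sum was 37.3, 20.8 and 15.9 CPM in NaCl tumors 1 to 3 and 56.1, 32.5 and 77.9 CPM in H89 tumors 1 to 3. Of the 9 T cell genes tested, 5 were higher and 0 lower at an unadjusted edgeR p under 0.05. The keratinocyte marker sum was 46.1 to 73.5 CPM in NaCl and 15 to 18.5 CPM in H89, with Krt1, Krt15 and Dsg1a at 0. Of its 10 listed genes, 2 averaged above 1 CPM, and 1 of the 2 tested was lower at an edgeR adjusted p under 0.05. The CT26 epithelial marker sum was 112 to 126 CPM in NaCl and 79.5 to 95.6 CPM in H89. It rested on few genes, as 4 of the 10 listed averaged above 1 CPM. Of the 7 tested, 1 was higher and 2 were lower at an unadjusted edgeR p under 0.05. The macrophage marker sum overlapped between groups (2173 to 3464 and 2655 to 3275 CPM). Mitochondrial mRNA took 4.89%, 6.16% and 5.06% of the counts in NaCl and 11.1%, 10.0% and 4.94% in H89, so that H89 tumors 1 and 2 stood apart from the other 4. Of its 13 genes, 6 were higher and 0 lower at an unadjusted edgeR p under 0.05. The part of these differences in the results below was not tested.

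At an adjusted p under 0.05, 6 of the 67 tested members rose in H89-treated tumors and 0 fell. These 6 are Pnisr, Rbm4b, Paxbp1, Nktr, Hnrnpdl and Rbm5. They make 8.96% of the members, where 0.861% of all tested genes were called higher and 0.724% were called lower. At an unadjusted p under 0.05, 22 members (32.8%) were higher against 13.1% of all genes, and 6 members (8.96%) were lower against 11.9% of all genes. In 23 members (34.3%) all H89 tumors lay above all NaCl tumors, against 15.2% of all genes, and in 10 members (14.9%) all lay below, against 15.5%. The median log2 fold change was 0.066 over the members and 0.004 over all genes tested. The changes were of modest size, since the largest ratio of group means was 1.62.

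The 6 calls rested on all tumors. When any 1 of the 6 tumors was left out, 0 members passed the adjusted threshold (the adjusted p of Pnisr then ranged from 0.0555 to 0.133). In these fits 19 to 22 members (28.4% to 32.8%) were still higher at an unadjusted p under 0.05, against 9.62% to 12.4% of all genes. With 0 calls among the members in each of these fits, the calls among all genes were also at most 11 higher and 2 lower. DESeq2 called 17 members higher (25.4%), among them all 6, and 1 lower, Rbm42 (1.49%), against 5.31% and 5.34% of all genes. After a correction of each tumor for GC content and transcript length, 7 members were called higher (10.4%), among them all 6, and 2 lower (2.99%), against 1.43% and 3.22% of all genes. At an unadjusted p the split of the members moved from 22 higher and 6 lower to 16 higher (23.9%) and 14 lower (20.9%). Over all genes the corrected shares were 10.8% and 18.8%, so the members' share on the lower side was near that of all genes. With this correction Hnrnph2, Luc7l3, Rbm25, Rbm39, Rbm43 and Son no longer passed on the higher side. Hnrnpa1, Hnrnpc, Hnrnpf, Hnrnpul1, Rbm12, Rbm18, Rbm3 and Rbm8a joined the lower side.

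**Figure D1:**
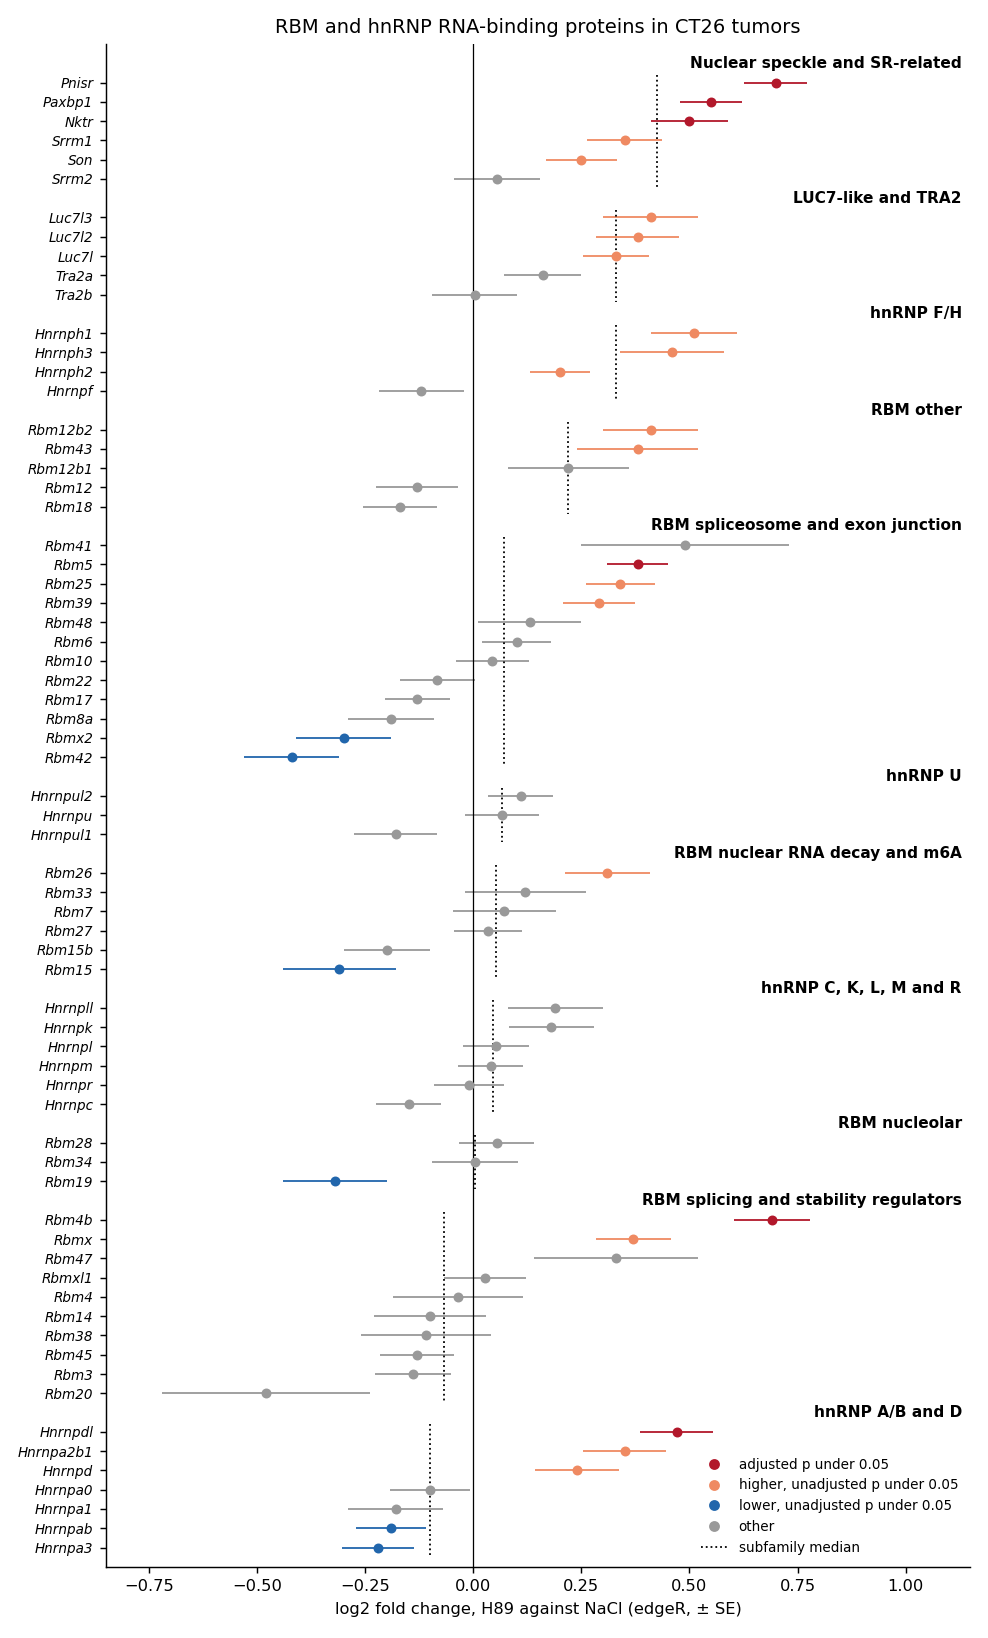
Log2 fold change of H89 against NaCl (x axis, edgeR, bars show the standard error) for the 67 tested members, grouped by subfamily and ordered by the subfamily median (dotted line). The speckle group lies farthest to the right, with a median of 0.43 and all 6 members above 0, and the hnRNP A/B and D group farthest to the left, with a median of -0.10 and members on both sides of 0.

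The 6 genes named one by one, grouped here as nuclear speckle and SR-related, had the highest median of the 11 tested subfamilies, 0.43. Their median stayed between 0.34 and 0.50 in all other normalizations and fits of the 6 tumors. Of the 6 genes, 3 rose at the adjusted threshold and 5 were higher at an unadjusted p under 0.05. These 6 genes were named one by one in the rule, with earlier results of these data known, so their share is not independent of those results. Without them, 3 of 61 tested members (4.92%) were called higher, against 0.861% of all genes. At an unadjusted p under 0.05, 17 of the 61 (27.9%) were higher and 6 (9.84%) lower, against 13.1% and 11.9% of all genes.

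Pnisr (ENSMUSG00000028248, GRCm38 chromosome 4, 21847583 to 21876475, plus strand) codes for a serine and arginine rich protein of nuclear speckles. Its level was 55.5, 60.3 and 57.0 CPM in NaCl tumors 1 to 3 and 95.0, 92.2 and 92.7 CPM in H89 tumors 1 to 3. The groups were far apart compared with their spread (57.6 ± 2.43 and 93.3 ± 1.5 CPM). Pnisr rose by 0.70 on the log2 scale (SE 0.073, edgeR, Benjamini-Hochberg adjusted p = 0.0288). The H89 tumor with 4.94% mitochondrial mRNA and the one with 11.1% differed by less than 3 CPM, and the same tumors held the highest and the second highest T cell marker sum. The part of mitochondrial mRNA or of T cells in the level of Pnisr was not tested.

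Paxbp1 (chromosome 16, 91014037 to 91044543, minus strand) codes for an adaptor first described as a partner of the transcription factors PAX3 and PAX7. It was measured at 43.2, 43.9 and 41.7 CPM in NaCl and at 62.6, 64.0 and 62.4 CPM in H89. No tumor came near the other group, and the rise was 0.55 on the log2 scale (SE 0.072, edgeR adjusted p = 0.0407). Nktr (chromosome 9, 121719169 to 121756843, plus strand) codes for a large cyclophilin with a serine and arginine rich tail, first described on natural killer cells. Its values were 75.1, 71.4 and 76.9 CPM in NaCl and 97.9, 103 and 116 CPM in H89. Nktr rose by 0.50 (SE 0.089, edgeR adjusted p = 0.0443). Its lowest H89 value, in tumor 1, was still above the highest NaCl value. Its highest H89 value came from the H89 tumor with the highest T cell marker sum. Its highest NaCl value came from the NaCl tumor with the lowest such sum. A relation of Nktr to the T cell markers was not tested.

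Srrm1, a splicing coactivator, held 189, 170 and 161 CPM in NaCl and 222, 218 and 222 CPM in H89, without overlap (log2 fold change 0.35, SE 0.087, edgeR adjusted p = 0.080). Son, a speckle scaffold, held 205, 195 and 204 CPM in NaCl and 224, 242 and 254 CPM in H89, again without overlap (0.25, SE 0.083, edgeR adjusted p = 0.122). Srrm2, the partner of Srrm1 and the most abundant gene of the group in CPM, behaved otherwise. It held 602, 514 and 514 CPM in NaCl and 519, 574 and 600 CPM in H89, the groups overlapped, and the log2 fold change was 0.055 (SE 0.10, edgeR adjusted p = 0.769). The ratio of Srrm1 to Srrm2 inside a tumor was higher in each H89 tumor than in each NaCl tumor (difference 0.29 on the log2 scale, exact two-sided permutation p = 0.1, the smallest that 3 against 3 tumors allow). The summed level of the 6 genes was 1055 to 1170 CPM in NaCl and 1221 to 1347 CPM in H89.

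**Figure D2:**
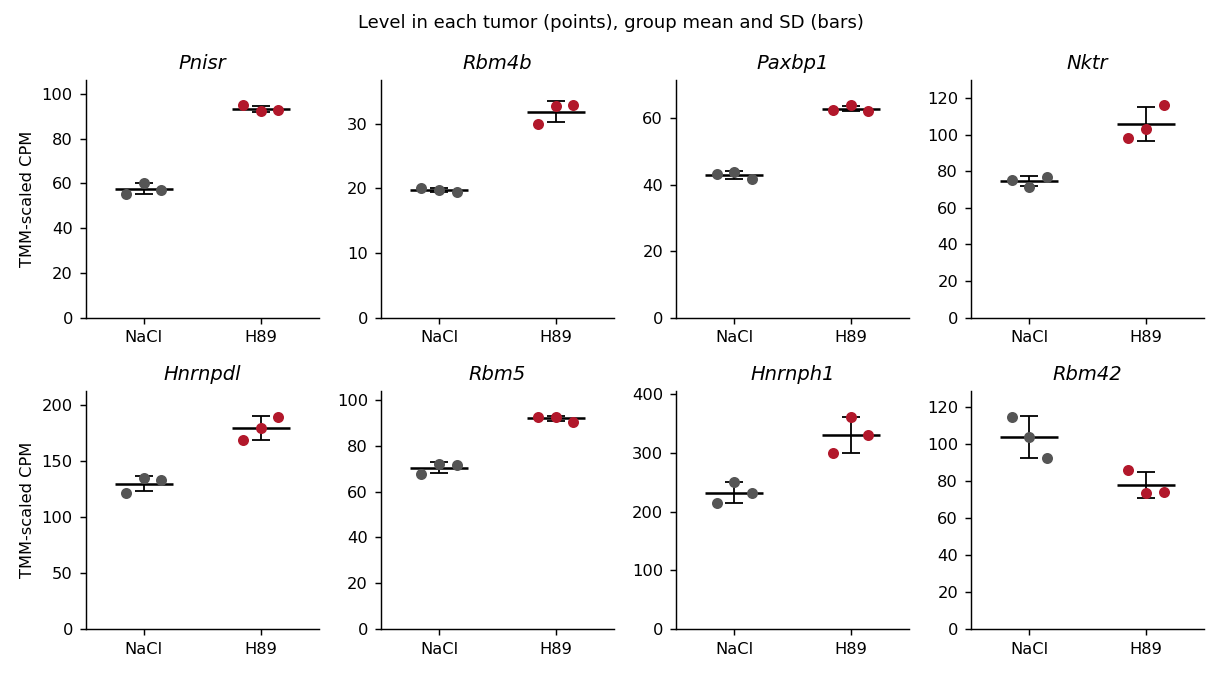
TMM-scaled CPM (y axis, from 0) of the 6 members with an adjusted p under 0.05, of Hnrnph1 and of Rbm42 in each tumor (points), with group mean and SD (n = 3). The NaCl and H89 points do not overlap in any of the 8 panels, and Rbm42 is the only one of them with lower values in H89.

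Among the LUC7-like and TRA2 genes the LUC7-like members stood higher in H89. LUC7-like proteins are the mammalian relatives of a yeast U1 snRNP subunit, and TRA2 proteins bind purine-rich exon enhancers. Luc7l held 67.9, 70.0 and 67.0 CPM in NaCl and 90.8, 81.3 and 85.3 CPM in H89. Luc7l2 held 159, 154 and 169 CPM against 193, 203 and 232 CPM, and Luc7l3 held 99.5, 103 and 88.2 CPM against 146, 121 and 121 CPM. None of the 3 overlapped between groups, with log2 fold changes of 0.33, 0.38 and 0.41, but no one of them passed the adjusted threshold (edgeR adjusted p = 0.0721, 0.080 and 0.0827). Tra2a (0.16, SE 0.088) and Tra2b (0.0031, SE 0.098) overlapped between groups. The sum of the 5 genes was 559, 587 and 570 CPM in NaCl and 704, 661 and 679 CPM in H89, without overlap. The ratios Luc7l to Luc7l2 and Luc7l3 to Luc7l2 differed by -0.051 and 0.033 (exact permutation p = 0.8 and 1.0), less than their spread between tumors.

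In the hnRNP F/H group, whose proteins bind runs of G, Hnrnph1 and Hnrnpf had fold changes of opposite sign, and neither passed the adjusted threshold. Hnrnph1 held 215, 251 and 231 CPM in NaCl and 300, 362 and 331 CPM in H89. The groups did not overlap and the log2 fold change was 0.51 (SE 0.10), just outside the adjusted threshold (edgeR adjusted p = 0.0526). Of 10 other fits of all tumors, 4 placed it inside. Among these were limma on log2(CPM + 0.5), a filter of 5 CPM and DESeq2 (adjusted p = 0.0474, 0.0487 and 0.000408). The rest left it outside, at most at an edgeR adjusted p of 0.0648 with the GC and length correction and the replicate block. Without 1 tumor it was also outside (edgeR adjusted p = 0.0663 to 0.155). Hnrnpf, another gene of the group, held 370, 396 and 456 CPM in NaCl and 362, 387 and 373 CPM in H89, with overlap (-0.12, SE 0.099). The log2 ratio of Hnrnph1 to Hnrnpf was -0.78, -0.66 and -0.98 in NaCl and -0.27, -0.10 and -0.17 in H89, a difference of 0.63 (exact two-sided permutation p = 0.1, 0.2 after adjustment over the 12 pairs). Hnrnph3 (0.46, SE 0.12, edgeR adjusted p = 0.0861) and Hnrnph2 (0.20, SE 0.070, edgeR adjusted p = 0.131) also lay higher in each H89 tumor.

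The hnRNP A/B and D genes lay on both sides of 0, with 1 call. Hnrnpdl (chromosome 5, 100033577 to 100039664, minus strand), a relative of the AU-rich element binding protein AUF1, held 122, 135 and 133 CPM in NaCl and 169, 180 and 190 CPM in H89. It rose by 0.47 (SE 0.085, edgeR adjusted p = 0.0473), with no overlap. Hnrnpd, which codes for AUF1, held 157, 169 and 155 CPM against 206, 194 and 169 CPM, with 1 value of 169 in each group (0.24, SE 0.098, edgeR adjusted p = 0.180). Hnrnpa2b1, an hnRNP that binds RNA for splicing and transport, held 400, 474 and 465 CPM in NaCl and 577, 589 and 537 CPM in H89 (0.35, SE 0.096, edgeR adjusted p = 0.091).

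The other abundant A/B genes lay on the lower side. Hnrnpa3 held 529, 554 and 573 CPM in NaCl and 446, 487 and 484 CPM in H89, without overlap (-0.22, SE 0.083, edgeR adjusted p = 0.152). Hnrnpab held 479, 517 and 476 CPM against 443, 433 and 415 CPM, again without overlap (-0.19, SE 0.081, edgeR adjusted p = 0.196). Hnrnpa1, a splicing repressor, overlapped between groups (638 ± 72.5 and 562 ± 38.7 CPM, log2 fold change -0.18, SE 0.11). Its log2 ratio to Hnrnpa2b1 was 0.48, 0.48 and 0.58 in NaCl and -0.16, -0.0018 and 0.11 in H89, a difference of -0.53 (exact permutation p = 0.1, adjusted 0.2). Hnrnpa1 counts are uncertain to the extent that processed pseudogenes share its reads. The sum of the subfamily hid the split, at 2571 to 2812 CPM in NaCl and 2642 to 2753 CPM in H89, and its median of -0.10 turned to 0.013 under quantile normalization.

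The hnRNP C, K, L, M and R genes and the hnRNP U genes gave 0 members past an unadjusted p of 0.05 in either direction among 9 with edgeR or DESeq2, while quantile normalization with limma placed Hnrnpk, Hnrnpl and Hnrnpu on the higher side and the GC and length correction Hnrnpc and Hnrnpul1 on the lower side. Hnrnpk (543 ± 41.0 and 614 ± 46.7 CPM), Hnrnpl (490 ± 5.48 and 508 ± 15.6 CPM) Hnrnpu (569 ± 34.0 and 596 ± 25.2 CPM) and Hnrnpul1 (319 ± 24.8 and 281 ± 19.2 CPM) overlapped between groups. Hnrnpc, which binds uridine tracts, was lower in each H89 tumor (209, 199 and 206 CPM against 190, 184 and 178 CPM) with a log2 fold change of -0.15 (SE 0.076, edgeR adjusted p = 0.251). Hnrnpll, the relative of Hnrnpl that switches Cd45 exons in lymphocytes, held 59.8, 76.3 and 78.4 CPM in NaCl and 80.1, 80 and 84.5 CPM in H89. Its groups did not overlap, but its log2 fold change of 0.19 (SE 0.11, edgeR adjusted p = 0.325) and its ratio to Hnrnpl (difference 0.15, exact permutation p = 0.3) did not pass. The median of the hnRNP U genes changed sign, from 0.066 to -0.14, with the GC and length correction.

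Among the 12 RBM genes of the spliceosome and the exon junction complex, Rbm5 rose and its paralog Rbm10 overlapped between groups. RBM5 and RBM10 act on the U2 side of splice site choice. Rbm5 (chromosome 9, 107740371 to 107770996, minus strand) held 67.8, 72.0 and 71.8 CPM in NaCl and 92.6, 92.8 and 90.6 CPM in H89, a rise of 0.38 (SE 0.071, edgeR adjusted p = 0.0483). Rbm10 held 65.7, 75.3 and 70.5 CPM against 73.4, 76.0 and 68.7 CPM (0.044, SE 0.085). The log2 ratio of Rbm5 to Rbm10 was higher in each H89 tumor, with a difference of 0.34 (exact permutation p = 0.1, adjusted 0.2), whereas that of Rbm6, the neighbor and relative of Rbm5, to Rbm10 differed by 0.059 (exact permutation p = 0.5). Rbm5 was the weakest of the 6 calls, since it missed the threshold without a filter (edgeR adjusted p = 0.0575) and under quantile normalization with limma (adjusted p = 0.0525).

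Other spliceosomal members lay on both sides without passing the adjusted threshold. Rbm25, a U1-associated regulator, held 170, 167 and 159 CPM in NaCl and 221, 200 and 209 CPM in H89 (0.34, SE 0.080, edgeR adjusted p = 0.0722). Rbm39, a U2AF-related coactivator, held 198, 200 and 214 CPM against 265, 238 and 246 CPM (0.29, SE 0.083, edgeR adjusted p = 0.0964). Rbm42, which binds hnRNP K, went the opposite way, with 115, 104 and 92.6 CPM in NaCl and 85.8, 73.4 and 74.0 CPM in H89. It had the smallest p of all members on the lower side (-0.42, SE 0.11, edgeR adjusted p = 0.0819), and DESeq2 and the GC and length correction called it. Rbmx2, a subunit of the complex that retains unspliced RNA, held 14.6, 14.8 and 15.4 CPM against 12.5, 12.0 and 11.9 CPM (-0.30, SE 0.11, edgeR adjusted p = 0.147). The exon junction core gene Rbm8a overlapped between groups (114 ± 3.21 and 100 ± 13.3 CPM).

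Among RBM regulators of splicing and stability, Rbm4b rose and its paralog Rbm4 overlapped between groups. RBM4 proteins regulate splicing and translation, and the genes lie next to each other on chromosome 19 (Rbm4b at 4756497 to 4767065, plus strand, and Rbm4 at 4784293 to 4793901, minus strand). Rbm4b held 20.0, 19.8 and 19.5 CPM in NaCl and 30, 32.8 and 32.9 CPM in H89, which is a rise of 0.69 on the log2 scale (SE 0.088, edgeR adjusted p = 0.0407). Rbm4 held 8.13, 10.6 and 11.1 CPM against 9.94, 9.84 and 9.26 CPM, with overlap (-0.035, SE 0.15). Their log2 ratio was -1.25, -0.87 and -0.78 in NaCl and -1.55, -1.69 and -1.77 in H89, the largest difference of the 12 pairs (-0.70, exact permutation p = 0.1, adjusted 0.2). The coding sequences of these paralogs are alike and the estimated counts of both were fractional in some tumors, so their division of reads is uncertain.

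Rbmx, an X-linked relative of the hnRNP proteins, held 41.1, 40.4 and 39.9 CPM in NaCl and 52.1, 56.8 and 48.2 CPM in H89 (0.37, SE 0.087, edgeR adjusted p = 0.0722). Its retrogene Rbmxl1, which can share its reads, overlapped between groups (84.7 ± 4.40 and 86.3 ± 8.26 CPM). Rbm3, a cold-inducible gene and the highest member per kilobase of transcript in NaCl (510 CPM per kb), held 596, 619 and 626 CPM in NaCl and 601, 553 and 516 CPM in H89, with overlap (-0.14, SE 0.088, edgeR adjusted p = 0.358). Its cold-inducible relative Cirbp, which is no member, also overlapped (23.3 ± 3.05 and 22.4 ± 2.38 CPM). After Rbm3, the order per kilobase in NaCl was Hnrnpa1 (367), Hnrnpa3 (334), Hnrnpa2b1 (271) and Hnrnpab (244 CPM per kb), and in H89 Hnrnpa2b1 (345) stood above Hnrnpa1 (324) and Hnrnpa3 (286).

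Of the 6 genes of nuclear RNA decay and of the m6A writer, 1 was higher and 1 lower at an unadjusted p under 0.05 (16.7% each), near the shares of all genes. Rbm26, a partner of the nuclear exosome, held 39.3, 43.5 and 46.7 CPM in NaCl and 49.6, 53.2 and 58.0 CPM in H89 (0.31, SE 0.099, edgeR adjusted p = 0.114), while its paralog Rbm27 overlapped between groups (0.034, SE 0.079). The log2 ratio of Rbm26 to Rbm27 differed by 0.28 without overlap (exact permutation p = 0.1, adjusted 0.2). Rbm15, which brings the m6A methyltransferase to RNA, held 21.1, 20.5 and 25 CPM against 16, 18.2 and 19.7 CPM (-0.31, SE 0.13, edgeR adjusted p = 0.186). Rbm15b pointed the same way with overlap (-0.20, SE 0.10), and the ratio of the pair differed by -0.10 (exact permutation p = 0.7). Rbm19, a nucleolar factor of ribosome assembly, held 22.6, 25.8 and 28.5 CPM against 21.9, 19.3 and 20.3 CPM (-0.32, SE 0.12, edgeR adjusted p = 0.146). Rbm28, the most abundant nucleolar member, overlapped between groups (77.0 ± 3.50 and 79.9 ± 6.34 CPM, log2 fold change 0.054, SE 0.087).

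**Figure D3:**
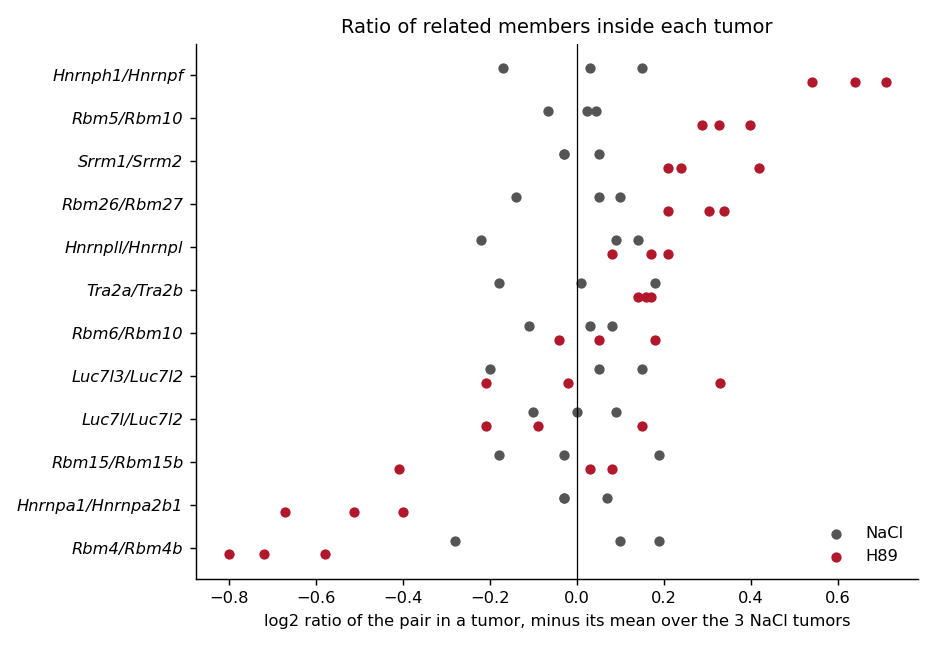
Log2 ratio of the 2 genes of each of 12 pairs in each tumor, from CPM with 0.5 added, minus its mean over the 3 NaCl tumors (x axis), with NaCl and H89 tumors as points. In 6 pairs the H89 points lie wholly to one side of the NaCl points (4 to the right, 2 to the left) and in 6 they overlap.

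Of the 5 remaining RBM genes tested, 2 were higher at an unadjusted p under 0.05, against 13.1% of all genes. Rbm12b2 held 15.8, 17.1 and 16.1 CPM in NaCl and 23.1, 19.6 and 22.4 CPM in H89 (0.41, SE 0.11, edgeR adjusted p = 0.0861), and its near copy Rbm12b1 can share its reads. Rbm43 held 21.8, 22.8 and 17.1 CPM against 29.9, 23.5 and 26.5 CPM (0.38, SE 0.14, edgeR adjusted p = 0.163). Rbm18 was lower in each H89 tumor (48.4 ± 2.23 and 42.9 ± 2.69 CPM) without passing an unadjusted p of 0.05. The other 39 tested members, Rbm18 among them, had p values from 0.0729 to 0.975 and log2 fold changes from -0.48 to 0.49.

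The 7 members that did not pass the filter had few counts or none. Rbm31y was at 0 counts in all tumors. Rbm24, Rbm44, Rbm46, Rbmxl2 and Hnrnpa1l2-ps2 had 0 to 3 counts in any tumor, and Rbm11 had 1 to 2 counts in NaCl and 4 to 8 in H89. Rbm11 lay higher in each H89 tumor and had an unadjusted p under 0.05 in the fit without a filter, at these few counts.

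Exons of 33 tested members overlap an exon of another gene, on the opposite strand in 25 members and on the same strand in 11, and the counting is not stated to use strand. A share of their counts may belong to those genes. Among the 6 called members these are Rbm4b, Paxbp1 and Nktr, each with an antisense gene.

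The annotation of transcripts was set beside the fold changes, as a description. In GENCODE M21, 34 of the 67 tested members (50.7%) had a transcript annotated as a target of NMD, against 27.9% of all tested genes with annotation. All 6 called members had one, as had 17 of the 22 members higher at an unadjusted p under 0.05 and 1 of the 6 lower ones. Of the 113 genes called higher among all genes, 43.4% had one. The median log2 fold change was 0.22 over the 34 members with such a transcript and -0.035 over the 33 without. Over all genes tested the same medians were 0.028 and -0.0042. The 6 genes named one by one all have such a transcript and were chosen with earlier results known. Without them it was present in 28 of 61 tested members (45.9%), 3 of 3 called and 12 of 17 higher at an unadjusted p under 0.05, and the medians were 0.17 and -0.035. Members also had more annotated transcripts of any kind (median 7, and 11.5 over the 6 called members, against 5 over all genes), a higher level (median 81.2 against 28.8 CPM) and a lower GC content (median 47.1% against 50.9%). The part of these properties in the NMD split was not tested. Retained-intron transcripts were annotated for 68.7% of members and 58.0% of all genes.

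**Figure D4:**
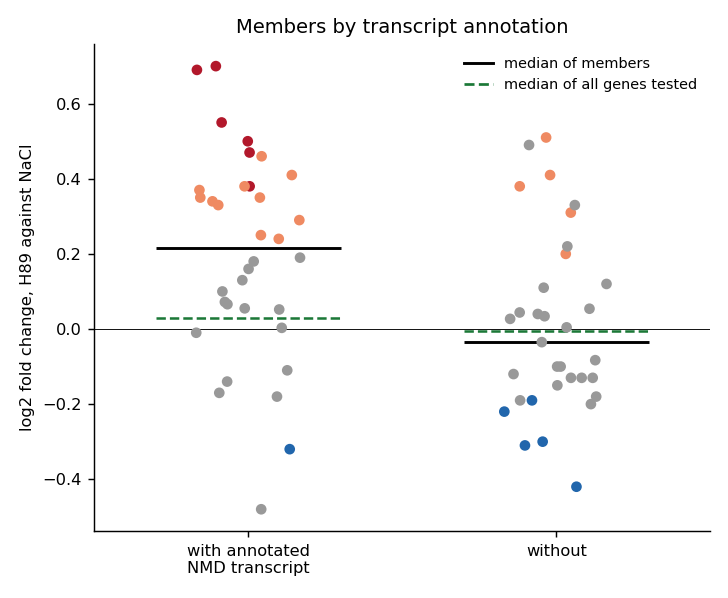
Log2 fold change of H89 against NaCl (y axis) of each tested member, with (34) and without (33) an annotated NMD transcript. Dark red points have an adjusted p under 0.05, orange and blue points an unadjusted p under 0.05 on the higher and lower side, and grey points neither. The median of members (black line) is 0.22 with and -0.035 without such a transcript, and the medians of all genes (dashed) are 0.028 and -0.0042.

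Promoter motifs were compared as a planned description, without a test. RefSeq starts on GRCm38.p6 were at hand for 62 members, and the 250 bases before each start were searched on both strands for 4 motifs. The cyclic AMP response element TGACGTCA, the site of the protein kinase A target CREB, was found in 1.55% of all 32851 promoters and 1.28% of the 78 member promoters. By gene it lay before 1 of 56 tested members, Tra2a (1.79%), and 2.93% of tested genes. CCAAT was found in 33.8% of all promoters and 51.3% of member promoters. By gene, CCAAT lay before 32 of 56 tested members (57.1%) and 13 of the 19 that were higher at an unadjusted p under 0.05, against 40.7% of tested genes. CACGTG lay before 10.7% of tested members and 9.59% of tested genes, and CTCGCGAG before Rbm15 and Rbm39 (3.57% against 1.72%).

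Of the called members, Nktr, Rbm4b and Rbm5 held a CCAAT box and Hnrnpdl and Paxbp1 held none of the 4 motifs. For Hnrnpdl and Paxbp1, all of the 120 bases before the RefSeq start lay in annotated exons of the same gene. Their windows thus held transcribed sequence, and the absence of motifs does not describe only the bases upstream of the gene. The promoter of Pnisr was not analysed here. The 120 bases before the RefSeq start of those with the box are shown 5′ to 3′, with the box in capitals, where ATTGG is CCAAT on the other strand. They come from chr9:121719061-121719180 on the plus strand for Nktr, chr19:4756405-4756524 on the plus strand for Rbm4b and chr9:107771003-107771122 on the minus strand for Rbm5. The distance of the box from the RefSeq start differed among them (116, 35 and 57 bases), and GC content was 70.0% to 75.0%. Of the 120 bases, 12 for Nktr, 28 for Rbm4b and 0 for Rbm5 lay in annotated exons of the same gene.
Nktr: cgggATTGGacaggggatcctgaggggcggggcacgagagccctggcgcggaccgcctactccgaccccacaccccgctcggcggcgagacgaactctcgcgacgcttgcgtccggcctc
Rbm4b: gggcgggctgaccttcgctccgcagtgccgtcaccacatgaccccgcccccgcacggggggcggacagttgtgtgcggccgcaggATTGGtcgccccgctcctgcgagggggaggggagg
Rbm5: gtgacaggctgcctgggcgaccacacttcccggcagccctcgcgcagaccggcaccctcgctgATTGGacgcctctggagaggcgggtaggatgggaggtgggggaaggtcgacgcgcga

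Other RNA-binding proteins outside the symbol rule were set beside the members. Of 34 such genes, 32 were tested, and edgeR called 0 in either direction, against 0.861% of all genes higher and 0.724% lower. DESeq2 called 1 higher and 2 lower, against 5.31% and 5.34% of all genes. At an unadjusted edgeR p under 0.05, 6 (18.8%) were higher and 3 (9.38%) lower, against 13.1% and 11.9% of all genes. The median log2 fold change of the 32 genes was 0.015. Higher ones included Tardbp (253 ± 15.3 and 307 ± 8.01 CPM, log2 fold change 0.27, SE 0.082, edgeR adjusted p = 0.105), which codes for TDP-43. The lower ones were Raly (295 ± 7.18 and 240 ± 17.1 CPM), an hnRNP C relative, Elavl1 (135 ± 8.53 and 116 ± 7.07 CPM), which stabilizes mRNA, and Pcbp4 (147 ± 14.0 and 115 ± 10.8 CPM). The difference between this list and the members was not tested.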

How the data were processed

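Total RNA of 3 NaCl and 3 H89-treated CT26 tumors was sequenced on the BGISEQ-500 platform. The authors deposited 1 table named TPM, whose values are estimated counts per gene: they sum to 27067349 to 31958793 per tumor, and 58.6% to 61.4% of values above 0 lie within 0.01 of a whole number. The submitters' processing notes name kallisto, DESeq2 and GRCm38, with no version. Conditions came from the sample labels, dose and schedule from the study's methods. Of the 23557 gene columns, 170 were listed one by one and 23387 were read in the same way.

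Estimated counts were rounded and genes with a mean of at least 0.5 CPM were tested with edgeR 4.0.16 (R 4.3.3, TMM, quasi-likelihood fit and F test, with no covariate beside treatment). The scripts were first tested on simulated counts. Alternatives were DESeq2 1.42.0, limma 3.58.1 on log2(CPM + 0.5) or log2(CPM + 0.1), quantile and RLE normalization, no filter or 5 CPM, a loess correction (span 0.3) for GC content and length, the replicate number as a block, each tumor left out, and, chosen after seeing the data, CPM without the TMM factor. Related genes were compared by log2((CPM + 0.5)/(CPM + 0.5)) with an exact permutation test. Lengths are medians over basic protein-coding transcripts of GENCODE M21 on GRCm38, which matched all 74 members by symbol.

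The members, subfamilies, pairs and lists were chosen with earlier results of these data known. Genes described are those with an adjusted p under 0.05, the 6 named in the rule, the most abundant member and the one with the smallest p of each subfamily, the paired genes, and Rbm3 with Cirbp. Others were named after their values were seen, by an unadjusted p under 0.05 or as a relative of a named gene. Each tumor came from 1 mouse, and no batch is given, so p-values measure the spread between these 6 tumors. A planned search for serine and arginine rich domains was not run, as protein sequences were not used here. Of 7 nuclear-retained RNAs listed as a check, 1 was in the table. The skeletal muscle marker sum was 2.43 to 4.03 CPM in NaCl and 23.4, 3.65 and 2.49 CPM in H89.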

Additional observations from a re-analysis of the deposited data

How the results depend on the processing

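The count of members called higher, 6, was 17 with DESeq2, 0 with the replicate number as a block, 0 with the GC and length correction plus the block, and 0 to 0 over the fits that left out 1 tumor. It was 5 to 7 in the other fits. The count called lower, 0, was 1 with DESeq2 and 2 with the GC and length correction. The count lower at an unadjusted p under 0.05, 6, was 3 with a minimum of 5 CPM (4.62%, against 11.2% of all genes). It was 14 with the GC and length correction (20.9% against 18.8%) and 14 with that correction and the block (20.9% against 19.7%). Without 1 tumor it was 1 to 6 (1.49% to 8.96%, against 7.9% to 13.9% of all genes). The count of 1 came without NaCl replicate 2, without NaCl replicate 3 or without H89 replicate 2. The count higher at an unadjusted p under 0.05 kept within 16 to 27 (23.9% to 40.3% of tested members, against 9.62% to 14% of all genes over the fits). Members wholly lower in H89, 10, were 5 with CPM without the TMM factor (where 20.5% of all genes lay wholly higher and 10.0% wholly lower). They were 10 to 16 when 1 tumor was left out (16 without NaCl replicate 1). The share over all genes was not taken with 1 tumor left out. Fewer tumors lie wholly apart more easily, so that range was not read further. The cause of these shifts was not tested, and the fits without 1 tumor also had fewer tumors. Same-numbered NaCl and H89 tumors did not deviate together (r = 0.163, 0.0609 and -0.0249), so the numbers are not taken as pairs, and under the block 0 of all 13118 genes were called against 113 higher and 95 lower without it. The log2 fold changes of the 6 called members stayed above 0 in all fits, between 0.29 and 0.73. Of subfamily medians, those of RBM genes of decay and the m6A writer (0.053 to -0.12) and of nucleolar RBM genes (0.0044 to -0.11) also changed sign with the GC and length correction. Estimated counts share ambiguous reads between paralogs, and 3 tumors a group limit the precision. A wider or narrower window for serine and arginine rich domains was not run.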

Other observations

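In some members the spread between tumors left the groups overlapping. Rbm33 held 69.8, 68.8 and 78.7 CPM in NaCl and 61.9, 82.7 and 91.1 CPM in H89, so that the H89 tumors lay on both sides of all NaCl tumors. Rbm20, known for splicing titin in muscle, held 3.20, 2.35 and 3.00 CPM against 1.57, 2.37 and 2.19 CPM and had the lowest log2 fold change of all tested members (-0.48, SE 0.24, edgeR adjusted p = 0.262), with groups that overlapped by 1 tumor. Rbm41 had one of the higher fold changes (0.49, SE 0.24, edgeR adjusted p = 0.243) at 3.83 to 6.49 CPM in NaCl and 5.58 to 7.80 CPM in H89, with overlap.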
